A study of Homo sapiens with 2 samples.

Results

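The genes for the translation initiation and elongation factors of the cytoplasm were examined in RNA-seq of human embryonic stem cell derivatives. They were chosen by symbol alone, as the genes whose names start with EIF and a digit from 1 to 6 or with EEF and 1 or 2, without the eIF2 kinases and without names that end in P and digits. The rule gave 62 of 55797 genes. Among them, 61 are annotated as protein coding, and the remaining name is EIF4EBP2P, a pseudogene whose name lacks the final digits and which was at 0 in both libraries. EIF1AY lies on chromosome Y and its level is not given, so values below cover 61 genes, of which 58 reached an FPKM of at least 1 in a library. FPKM, which counts fragments relative to gene length and library size, is per length and can be set side by side between genes. The name is not always the function, since EIF2C1 to EIF2C4 are the old symbols of the Argonaute genes, which act in silencing by small RNAs.

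Both libraries came from the human embryonic stem cell line H1 after differentiation to Stage 6, a mixed culture that holds insulin-expressing cells among others. Live cells were not fixed, and their RNA was isolated with RNeasy. Processed cells were fixed in 4% paraformaldehyde, permeabilized, stained with antibody and mock sorted with every cell kept, and their RNA was isolated with a modified RecoverAll kit. The comparison asks whether this handling alters how transcripts are represented, and fixation, staining, sorting and isolation kit cannot be told apart in it. There was 1 library of each kind, so no difference has a replicate check and no test was made. The authors' files give a lower and an upper bound for each FPKM, of unstated level, and bounds are called separate here when the ranges of the live and processed values do not overlap. They describe the estimate within a library only. In a bulk culture, fewer cells of a type and less RNA per cell cannot be told apart.

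Summed FPKM was 510713 in live cells and 499398 in processed cells, and read counts are not used here. Endocrine markers were present in both libraries, with INS, GCG, SST and CHGA between 98.3 and 1794 FPKM in live cells and between 121 and 1741 FPKM in processed cells. Markers of other cells were present too, with AFP, a fetal liver gene, at 460 and 550 FPKM and KRT19, a duct gene, at 543 and 518 FPKM, while the stem cell genes POU5F1 and NANOG were at 7.92 and 8.53 FPKM and at 1.27 and 7.34 FPKM. Over genes at 1 or more in both, the ratio of processed to live FPKM had a median of 0.932, a log2 shift of -0.10. Directions below are for FPKM as deposited, and the split after division by this ratio is given beside them.

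Translation starts when eIF2, loaded with GTP and the initiator tRNA, joins the small ribosomal subunit together with eIF1, eIF1A, eIF3 and eIF5. The eIF4 factors bind the capped end of the mRNA, unwind it and recruit this complex, which scans to a start codon, after which eIF5B joins the large subunit. In elongation eEF1A brings each aminoacyl-tRNA, the eEF1B subunits recharge eEF1A with GTP, and eEF2 moves the ribosome along. Many of these genes belong to the group whose mRNAs begin with a terminal oligopyrimidine (TOP) tract, through which the mTOR pathway controls their translation. Their coding sequences are also a common source of processed pseudogenes.

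Because many of these genes left near-identical copies in the genome, sequences of 3 genes and their highest pseudogenes are shown first. Each line is a stretch of 80 nt, the length of a sequencing read, from the coding sequence in GRCh37 and from the same place in the copy, read 5′ to 3′ on the strand of the gene, with capitals for the bases that differ between the pair. For each pair, the stretch shown is the one with the most differing bases within the aligned coding sequence, without gaps. Even these stretches show how little separates reads of gene and copy.
EEF1A1, chr6:74228943-74229130, minus strand, coding bases 254 to 333 across an intron: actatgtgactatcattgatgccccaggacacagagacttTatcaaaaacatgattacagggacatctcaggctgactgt
EEF1A1P5, chr9:135895126-135895205, plus strand, no intron: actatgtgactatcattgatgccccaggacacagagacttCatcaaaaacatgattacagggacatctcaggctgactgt
EEF1B2, chr2:207027506-207027585, plus strand, coding bases 577 to 656: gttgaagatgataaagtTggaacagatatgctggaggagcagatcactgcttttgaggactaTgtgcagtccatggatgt
EEF1B2P3, chrX:24806531-24806610, minus strand: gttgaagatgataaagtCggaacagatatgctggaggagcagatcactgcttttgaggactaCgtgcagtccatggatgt
EIF2S2, chr20:32677578-32677657, minus strand, coding bases 881 to 960: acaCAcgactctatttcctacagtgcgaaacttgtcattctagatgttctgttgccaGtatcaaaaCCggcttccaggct
EIF2S2P4, chr2:171609177-171609256, plus strand: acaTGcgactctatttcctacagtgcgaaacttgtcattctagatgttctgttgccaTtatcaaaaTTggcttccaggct
The first pair differs at 1 base, the second at 2 and the third at 5.

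The 61 genes together held 8479 FPKM in live cells, 1.66% of the summed FPKM, and 7884 FPKM, 1.58%, in processed cells. EEF1A1 alone made up 27.2% and 28.2% of this. By level it ranked 13 of all genes in the live library and 19 in the processed one, and EEF2 ranked 96 and 101. Levels spanned a wide range, with 51 genes at 10 FPKM or more in a library, 19 at 100 or more in live cells and 20 in processed cells. Besides EIF4EBP2P, the genes below 1 FPKM in both libraries were EIF4E1B, a germline relative of the cap-binding protein, at 0.309 in live cells and 0.000684 in processed cells, and EIF5A2, at 0.693 and 0.163 FPKM. By plain ratio both were past 2-fold lower with separate bounds, at levels where the scale used below cannot reach 2-fold.

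**Figure D1:**
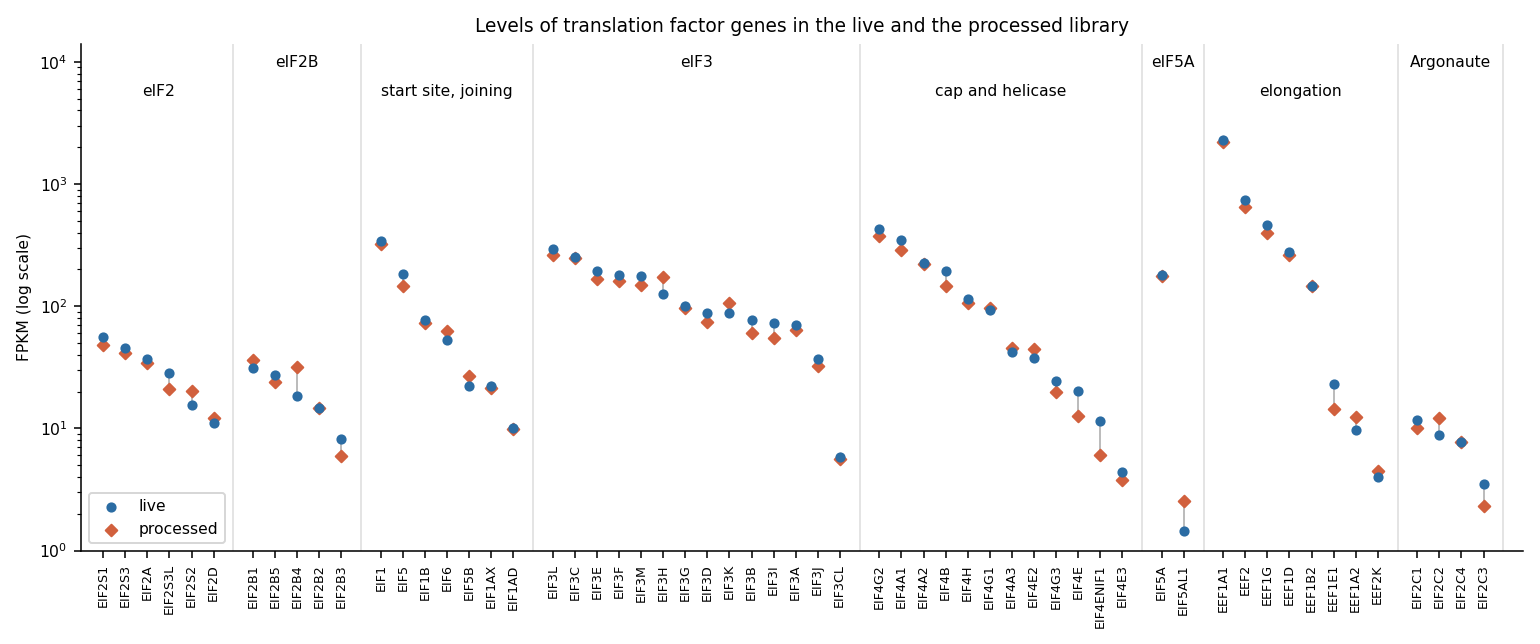
FPKM on a log scale of the 58 genes at 1 or more in a library, grouped by role, with circles for the live and diamonds for the processed library and a grey line joining the pair. EEF1A1 stood highest at 2303 and 2221 FPKM, and in most genes the pair of symbols lay close together compared with the distance between genes.

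No expressed translation factor gene differed 2-fold between live and processed cells. On the scale of log2((processed FPKM + 1) / (live FPKM + 1)), which understates the change of low genes, 0 of 58 genes were more than 2-fold higher and 0 were more than 2-fold lower, while 6.57% and 6.19% of the 17326 genes at 1 FPKM or more were. The values ran from -0.83 to 0.77 with a median of -0.09, and the quartiles were -0.23 and 0.04. The median over all 17326 genes was also -0.09, with quartiles of -0.39 and 0.25. These shares and quartiles are not matched for level. The 8515 genes at 10 FPKM or more, a level that 51 of the 58 reached, spread less, with quartiles of -0.32 and 0.16. Their 5th and 95th percentiles were -0.73 and 0.72, so fewer than 5% of them passed 2-fold in either direction. The 51 had quartiles of -0.22 and 0.03. A smaller fold of 1.25, chosen after the values were seen, was passed by 6 genes that were higher and 10 that were lower, or 10.3% and 17.2%, where 21.9% and 30.2% of all genes passed. After division by the median ratio these counts were 10 higher and 5 lower, or 17.2% and 8.62%, where 26.1% and 24.3% of all genes passed. Among genes at 10 FPKM or more, 5 of 51 were higher by that fold and 8 were lower, where 15.4% and 25.1% of 8515 genes were.

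Direction leaned to lower values in processed cells, but that lean went with the scaling. As deposited, 41 of 58 genes were lower and 17 higher, so that 70.7% were lower, compared with 58.3% of all genes. After division by the median ratio, 28 were lower and 30 higher, or 48.3% lower, compared with 50.1% of all genes. EEF1A1, EEF1D, EIF1, EIF1AX and EIF1B were lower with separate bounds as deposited and were slightly higher after this scaling. Bounds were separate for 32 genes that were lower and 12 that were higher, 55.2% and 20.7%, and for 43.7% and 28.1% of all genes. After scaling the counts with separate bounds were 21 lower and 19 higher, or 36.2% and 32.8%, compared with 35.7% and 34.8% of all genes.

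The bounds of most of these genes were narrow. Over the 57 expressed genes with status OK in both libraries, the distance from value to bound was between 0.428% of the value, for EEF2, and 9.83%, for EIF2C2, in live cells, with a median of 2.86%. In processed cells it ran from 0.475% to 20.1%, with a median of 3.02%. Differences of a few percent could thus have separate bounds, with no measure of the spread between cultures. EIF4A2 was the exception, since its status was FAIL in live cells, where 226 FPKM had bounds of 0 and 1398.

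**Figure D2:**
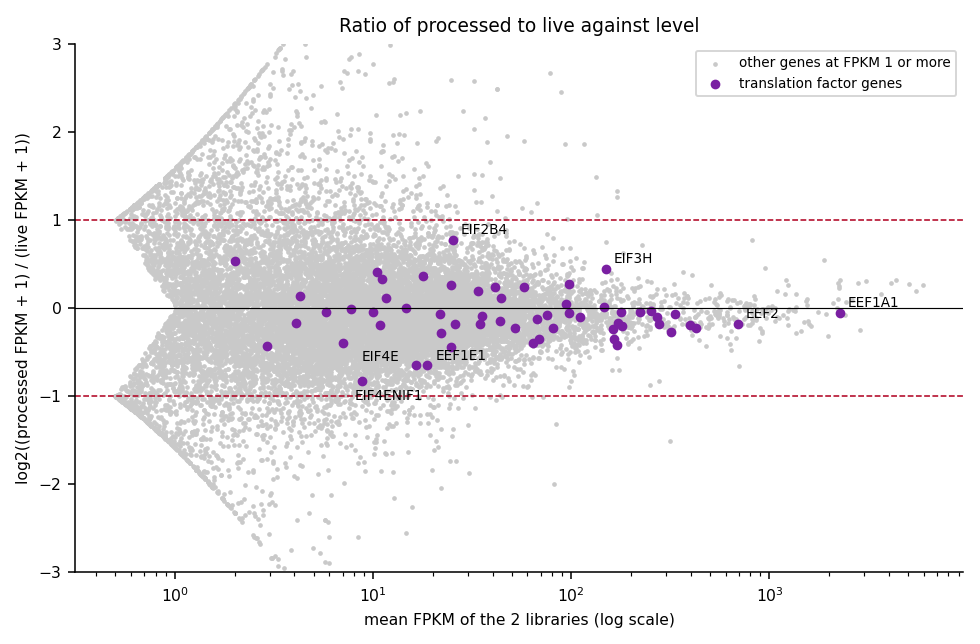
Log2 ratio of processed to live (FPKM + 1) against the mean FPKM of the pair on a log scale, for the 58 translation factor genes (purple) and the other genes at 1 FPKM or more (grey), with dashed lines at 2-fold. All purple points lay between the dashed lines, from EIF4ENIF1 at -0.83 to EIF2B4 at 0.77, and 88 genes fall outside the vertical range drawn.

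The elongation genes were the most abundant group and their highest members differed little. EEF1A1 (chr6:74225473-74233520), the tRNA carrier, was at 2303 FPKM in the live library (bounds 2290 to 2315) and 2221 FPKM in the processed one (2207 to 2235), a log2 ratio of -0.05. EEF2, the translocase, was at 735 FPKM in the live library and 651 FPKM in the processed one, a log2 ratio of -0.17. Both were lower in processed cells with separate bounds. Within eEF1B, the exchange factor of eEF1A, EEF1G was at 459 and 394 FPKM, EEF1D at 280 and 261, and EEF1B2 at 146 and 147. The order of these subunits was kept, and the highest exceeded the lowest by 3.15 times in live and 2.69 times in processed cells.

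EEF1A2, the form of eEF1A known from neurons and muscle, was at 9.71 FPKM in live cells against 12.4 FPKM in processed ones, a log2 ratio of 0.33. EEF1A1 exceeded it 237 times in live cells. EEF2K, the kinase that inhibits eEF2, was at 4.00 and 4.52 FPKM. EEF1E1, which carries an EEF symbol but is a scaffold protein of the aminoacyl-tRNA synthetase complex, showed a larger difference. It was at 23.1 FPKM (bounds 21.95 to 24.31) live and 14.4 FPKM (13.6 to 15.2) processed, a log2 ratio of -0.65. Of the 8 genes, 3 were higher and 5 lower as deposited, and 5 were higher and 3 lower after scaling by the median ratio. Among all genes 58.3% were lower as deposited and 50.1% after scaling.

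The eIF2 genes were expressed at moderate levels, and EIF2S2 alone of the trio was higher in processed cells. With its expressed pseudogenes added, the sum was nearly equal in both libraries (log2 ratio -0.03). EIF2S1, the subunit whose phosphorylation shuts down initiation under stress, was at 56.2 FPKM live and 47.8 FPKM processed, a log2 ratio of -0.23. EIF2S3, the subunit that binds GTP and tRNA, was at 45.8 and 41.4 FPKM, a log2 ratio of -0.14. EIF2S2, the beta subunit, was at 15.5 FPKM (bounds 14.97 to 15.97) and 20.3 FPKM (19.7 to 20.9), a log2 ratio of 0.37. EIF2S2 was the lowest of the trio in both libraries, and without the pseudogenes the ratio of highest to lowest went from 3.64 to 2.36. EIF2S3L, a copy of EIF2S3 on chromosome 12 now named EIF2S3B, was at 28.6 and 20.8 FPKM, a log2 ratio of -0.44. EIF2A and EIF2D, which can deliver tRNA to the ribosome without eIF2, were at 36.7 and 34.4 FPKM and at 11.1 and 12.2 FPKM, with overlapping bounds in both cases.

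The eIF2B complex, which recharges eIF2 with GTP, held the gene with the highest log2 ratio of the 58, on the scale with a pseudocount of 1. EIF2B4 (chr2:27587219-27593353) was at 18.3 FPKM live (bounds 17.7 to 19.0) and 32.0 FPKM processed (30.4 to 33.5), a ratio of 1.75 and a log2 ratio of 0.77. The long noncoding RNA AC074117.10 overlaps it on the other strand and was at 3.72 and 12.3 FPKM. Whether counting used the strand is not given in the sources used here, so reads from the stretch they share cannot be told apart. The other subunits were closer between libraries, with EIF2B1 at 31.4 and 36.2 FPKM, EIF2B5, which holds the catalytic site, at 27.4 and 24.1, EIF2B2 at 14.6 and 14.7, and EIF2B3 at 8.11 and 5.95. EIF2B4 stood below EIF2B5 in live cells and above it in processed cells, and the highest exceeded the lowest by 3.87 and 6.08 times.

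Factors of start site selection and subunit joining were lower in 5 of 7 genes as deposited, where 58.3% of all genes were. After scaling by the median ratio 1 of 7 was lower, where 50.1% of all genes were, and that gene was EIF5. EIF5, which triggers GTP hydrolysis by eIF2 at the start codon, was at 185 FPKM in the live library and 145 FPKM in the processed one, a log2 ratio of -0.34 with separate bounds. EIF5B, the GTPase of subunit joining, was at 22.3 and 26.9 FPKM, a log2 ratio of 0.26, and EIF6, which keeps free large subunits apart from small ones, was at 53.0 and 62.7 FPKM, a log2 ratio of 0.24. Both of these were higher in processed cells with separate bounds. EIF1, which guards the fidelity of start codon choice, was at 340 and 324 FPKM, its paralog EIF1B at 77.2 and 73.0 FPKM, and EIF1AX at 22.3 and 21.3 FPKM. EIF1AD, a nuclear protein with a domain like that of eIF1A, was at 10.1 and 9.79 FPKM. EIF1 exceeded EIF1B 4.41 times in live cells and 4.44 times in processed cells.

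The eIF3 genes, which encode the scaffold that bridges mRNA and small subunit, were lower in processed cells in 12 of 14 cases, 9 with separate bounds, and 2 were higher, both with separate bounds. Of all genes, 58.3% were lower, 43.7% were lower with separate bounds and 28.1% were higher with separate bounds. Their median log2 ratio was -0.17, and after scaling it was -0.07 with 9 lower and 5 higher, where 50.1% of all genes were lower. EIF3H stood out in the other direction, at 127 FPKM in the live library (bounds 124 to 130) and 173 FPKM in the processed one (166 to 181), a log2 ratio of 0.45. EIF3K was also higher, at 87.7 and 107 FPKM. EIF3B and EIF3I, which form a module with EIF3G, were among the lower log2 ratios of eIF3, with 77.6 and 60.5 FPKM for EIF3B (log2 ratio -0.35) and 72.7 and 55.2 FPKM for EIF3I (log2 ratio -0.39). EIF3G itself was at 99.7 and 95.9 FPKM with overlapping bounds.

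The order of eIF3 subunits was led by EIF3L, at 295 and 261 FPKM, and EIF3C, at 254 and 249 FPKM, in both libraries. The level and place of EIF3C are uncertain, because the copy EIF3CL has nearly the same sequence, as given below. EIF3E was at 193 and 167 FPKM, EIF3F at 181 and 161, and EIF3M at 175 and 149. EIF3D, which can itself bind the cap, was at 87.7 and 74.8 FPKM, and EIF3A, the largest subunit, was at 69.7 and 64.0 FPKM. EIF3J, which is loosely bound to the complex, was lower than the 12 core subunits, at 36.9 and 32.4 FPKM. Among those 12, the highest exceeded the lowest by 4.23 times in live and 4.72 times in processed cells, although the proteins are thought to be present in equal number in the complex. EIF3H moved from above 6 of the other core subunits in live cells to above 9 in processed cells.

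**Figure D3:**
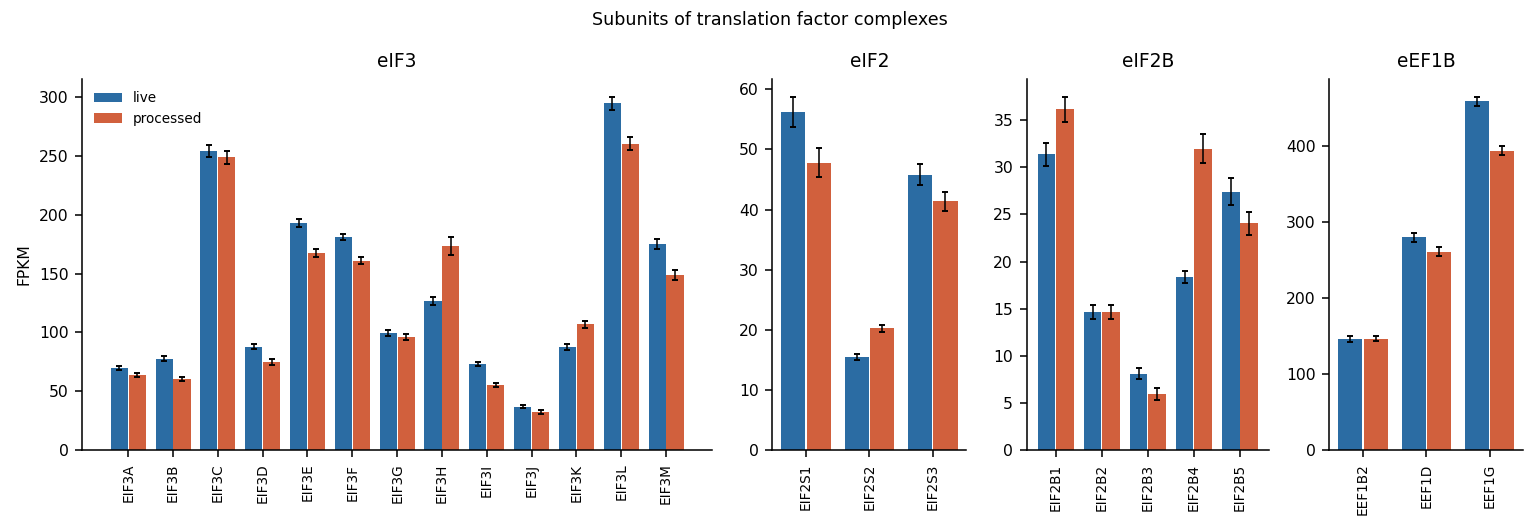
FPKM of the subunits of eIF3 (with EIF3J), eIF2, eIF2B and eEF1B in the live and the processed library, where error bars are the bounds in the authors' files. EIF3H, EIF3K, EIF2S2, EIF2B1 and EIF2B4 were higher in processed cells with separate bars, while EIF2S1, EIF2S3 and most eIF3 subunits were lower.

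The cap-binding and helicase factors held the gene with the lowest log2 ratio of the 58, on the scale with a pseudocount of 1. EIF4ENIF1 (chr22:31835349-31892094), which carries eIF4E into the nucleus and represses bound mRNAs, was at 11.5 FPKM live (bounds 10.8 to 12.2) and 6.06 FPKM processed (5.68 to 6.43), a ratio of 0.526 and a log2 ratio of -0.83. EIF4E, the cap-binding protein, was at 20.2 FPKM (19.1 to 21.3) and 12.5 FPKM (11.7 to 13.4), a log2 ratio of -0.65. EIF4E2, a cap-binding relative that represses translation, was at 37.8 and 44.7 FPKM, a log2 ratio of 0.24. EIF4E2 thus exceeded EIF4E 1.87 times in live cells and 3.57 times in processed cells. EIF4E3 was at 4.36 and 3.78 FPKM with overlapping bounds.

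EIF4A1, the main helicase, was at 346 FPKM in live cells against 287 FPKM in processed ones, a log2 ratio of -0.27. Within this gene, on the same strand, lies SNORD10, a small nucleolar RNA, which was at 0 and 66.2 FPKM. The RNA was poly-A selected, and whether the FPKM of SNORD10 came from reads of EIF4A1 was not tested. EIF4A2 was at 226 and 220 FPKM, with the failed status named above for live cells. EIF4A3, a helicase of the exon junction complex that marks spliced mRNA, was at 42.0 and 45.8 FPKM. EIF4B, which stimulates the helicase, was at 195 and 146 FPKM, a log2 ratio of -0.42 with separate bounds, and EIF4H, which does so too, was at 115 and 107 FPKM. Of the scaffold genes, EIF4G2, which lacks the eIF4E binding site, was at 425 and 373 FPKM, EIF4G1 at 92.7 and 96.2 FPKM, and EIF4G3 at 24.2 and 19.8 FPKM. EIF4G2 exceeded EIF4G1 4.58 times in live and 3.88 times in processed cells. In this group of 12 expressed genes 9 were lower as deposited, with a median log2 ratio of -0.18, and 8 were lower after scaling. The shares of all genes that were lower were 58.3% and 50.1%.

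EIF5A, which helps ribosomes through difficult stretches such as runs of proline, was at 181 FPKM live and 175 FPKM processed, with overlapping bounds. EIF5AL1, an EIF5A copy on chromosome 10, was at 1.45 and 2.55 FPKM, a log2 ratio of 0.53 with separate bounds at a low level. Of the Argonaute genes, EIF2C1 (AGO1) was at 11.6 and 10.1 FPKM, EIF2C2 (AGO2), which can cleave its targets, at 8.89 and 12.1 FPKM, EIF2C3 (AGO3) at 3.49 and 2.32 FPKM, and EIF2C4 (AGO4) at 7.78 and 7.71 FPKM. EIF2C3 and EIF2C1 were lower with separate bounds, whereas the bounds of EIF2C2 and EIF2C4 overlapped. EIF2C2 had a log2 ratio of 0.41, and its bounds, 8.02 to 9.77 FPKM live and 9.68 to 14.6 FPKM processed, overlapped only at their edge. Among the 57 expressed genes with status OK in both libraries, it has the widest bounds relative to its value in each.

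**Figure D4:**
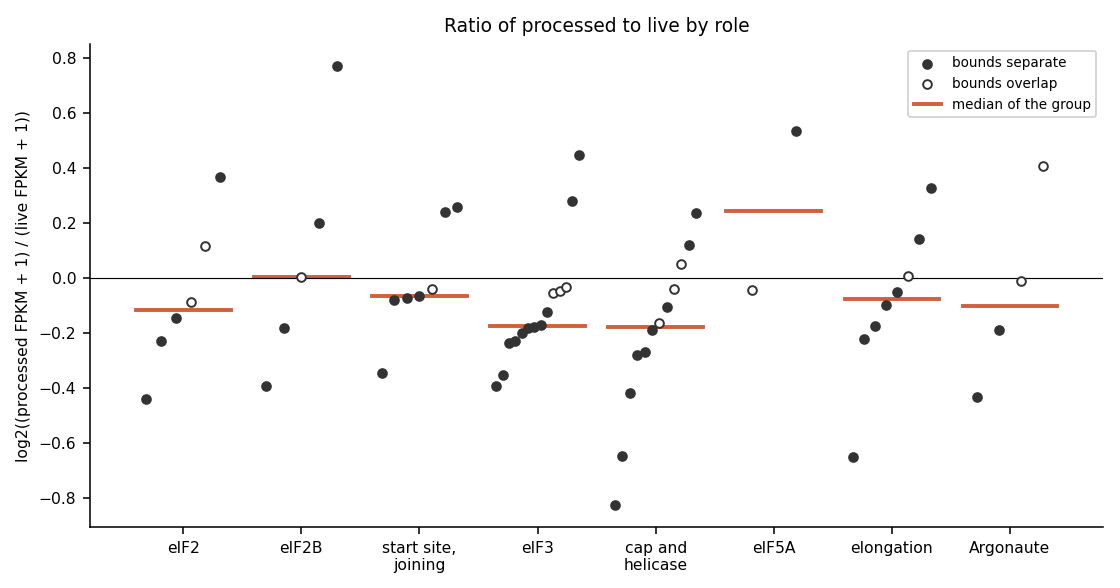
Log2 ratio of processed to live (FPKM + 1) for each expressed gene by role, with filled points for separate bounds, open points for overlapping bounds and an orange bar for the median of the group. The eIF3 and the cap and helicase groups lay mostly below 0, with medians of -0.17 and -0.18, and each larger group held genes on both sides of 0.

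Some pseudogenes named after translation factors had FPKM values above those of the gene itself. How much of this FPKM came from reads of the gene was not tested. The tables list 82 pseudogenes named after these genes, of which 2 lie on chromosome Y and are not given here. Of the other 80, 18 reached 1 FPKM in a library, 6 reached 10 FPKM and 35 were at 0 in both. EEF1A1P5 (chr9:135894816-135896553) was at 3099 FPKM in the live library and 2610 FPKM in the processed one, above EEF1A1 itself by 1.35 times in live cells. Its transcript differed from EEF1A1 at 4 of 1389 aligned bases, and 75.6% of its 80-nt windows occurred unchanged in EEF1A1 transcripts. In turn, 8.98% of the windows of all annotated EEF1A1 transcripts occurred in EEF1A1P5. A read from a shared window cannot be placed on gene or copy from its own sequence alone. Reads were paired, and how often the mate would place it was not examined, here or for the shares of windows below. EEF1A1P6 was at 864 and 768 FPKM, with the status LOWDATA and a lower bound of 0 in both libraries. Summed over EEF1A1 and its 6 expressed pseudogenes, which is approximate because FPKM is per length, the log2 ratio was -0.16 rather than -0.05, and pseudogenes held 63.3% of the sum in live and 60.4% in processed cells.

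For EIF2S2 the sum was nearly equal in both libraries. EIF2S2P4, which differs from EIF2S2 at 11 of 984 bases and shares 47.5% of its windows with it, was at 31.0 FPKM in live cells against 24.0 FPKM in processed ones, while EIF2S2 was at 15.5 and 20.3 FPKM. Summed with its 2 expressed pseudogenes, EIF2S2 was at 48.9 and 47.9 FPKM, a log2 ratio of -0.03 in place of 0.37. EEF1B2P3 was at 200 and 188 FPKM beside EEF1B2 at 146 and 147, with 41.2% of its windows shared. EIF1AXP1 was at 64.6 and 53.2 FPKM, with the status LOWDATA and lower bounds of 0, beside EIF1AX at 22.3 and 21.3 FPKM, with 68.3% shared. In turn, 17.4% of the windows of EIF2S2 occurred in EIF2S2P4, 10.6% of those of EEF1B2 in EEF1B2P3 and 5.51% of those of EIF1AX in EIF1AXP1. In the other 6 genes with expressed pseudogenes, which were EIF4A1, EIF3L, EEF1D, EIF4B, EIF3E and EIF3F, the copies held between 1.04% and 6.82% of the sum in live cells.

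Paralogs differed in how far their reads can be separated. EIF3CL is identical to EIF3C over 2910 aligned bases, and 95.7% of its windows occur in EIF3C. In turn, 41.05% of the windows of EIF3C occur in EIF3CL. How FPKM was split between them is thus uncertain, for the 254 and 249 FPKM of EIF3C as for the 5.85 and 5.63 of EIF3CL. EIF2S3L is 96.9% identical to EIF2S3 with 11.4% of windows shared, and EIF5AL1 is 98.0% identical to EIF5A over the aligned part with 6.11% shared. By contrast, EEF1A2, EIF1B and EIF4A2 share 0 windows with EEF1A1, EIF1 and EIF4A1, with identities of 79.0%, 82.2% and 78.4%, so no stretch of read length is common to these pairs.

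**Figure D5:**
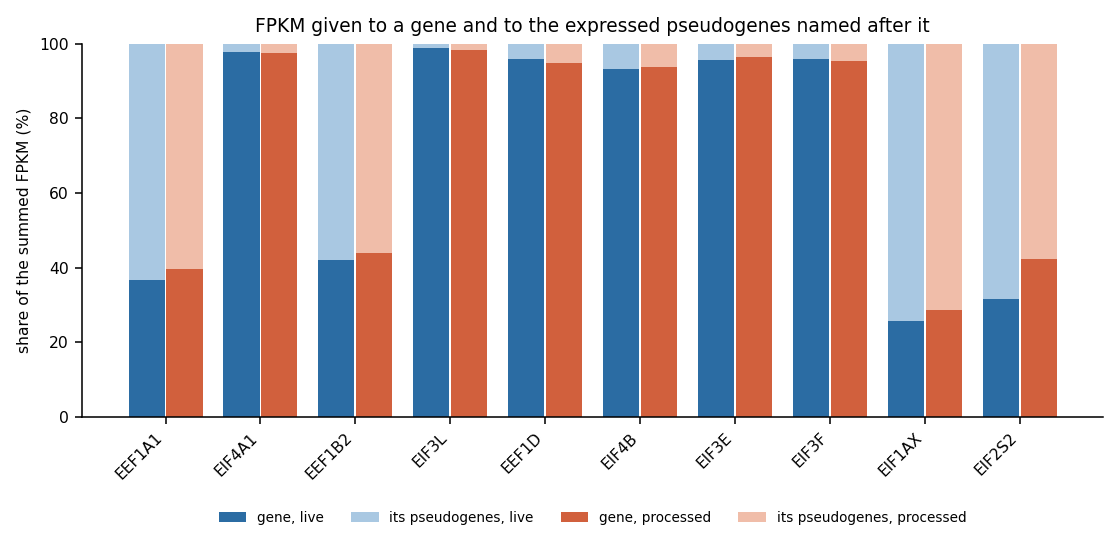
Share of summed FPKM, in percent, given to each gene (dark) and to the expressed pseudogenes named after it (light), for the live and the processed library. In EEF1A1, EEF1B2, EIF1AX and EIF2S2 the pseudogenes held more than the gene in both libraries, up to 74.3% for EIF1AX in live cells, while in the other 6 genes they held little. The EIF1AX share rests on EIF1AXP1, which has the status LOWDATA and a lower bound of 0 in both libraries.

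Genes of the TOP list were mostly abundant, with 12 of 15 at 100 FPKM or more in live cells. This list of 15 known TOP genes, which are the main elongation factors, 6 eIF3 subunits, EIF4A2, EIF4B and EIF2S3, had a median of 193 FPKM live and 167 FPKM processed, against 28.6 and 32.0 FPKM for the other 43 genes. Of the 15, 12 were lower and 3 higher, with a median log2 ratio of -0.14, and the other 43 had 29 lower, 14 higher and a median of -0.07. After scaling by the median ratio the TOP genes were 9 lower and 6 higher, with a median of -0.04, and the other 43 were 19 lower and 24 higher, with a median of 0.03. The share of all genes that were lower was 58.3% as deposited and 50.1% after scaling. The start of the transcript is shown for some, from RefSeq on GRCh38.p14, as the 10 bases before and the 15 bases from an annotated start. Where a gene has several, the start with the longest tract is shown. Capitals mark a C followed by at least 4 pyrimidines at that start.
EEF1A1: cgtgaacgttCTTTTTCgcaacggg
EEF2: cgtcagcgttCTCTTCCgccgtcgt
EIF4A2: gcgccgctgtCTTTTCagtcgggcg
EIF4B: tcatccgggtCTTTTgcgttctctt
EIF3F: cttccgcctcCTTCTTTCTCgacaa
EIF3M: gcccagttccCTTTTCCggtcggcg
EIF2S3: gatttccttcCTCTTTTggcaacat
EIF2S3L: gactttcttcCTCTTTTggcaacat
EIF3K: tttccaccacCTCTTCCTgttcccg
The last pair of lines shows the copy EIF2S3L and the gene EIF3K, which are outside the list yet carry the tract. EIF3D, EIF2A and EIF2D, which are not shown, are also outside the list and carry it, with log2 ratios of -0.23, -0.09 and 0.12. EIF4B had the lowest log2 ratio of the list, -0.42, and EIF2S3L and its parent EIF2S3, which carry the same tract, had log2 ratios of -0.44 and -0.14. EIF3K was higher in processed cells, at 0.28.

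A gene was counted as having such a tract if any of its annotated starts had it, on the strand of the gene. Only genes with a start in the promoter set used here could be counted. The tract was found in 8 of 9 TOP list genes, in 5 of 39 other translation factor genes, which is 12.8%, and in 1404 of 27305 genes, or 5.14%. The 13 genes with the tract had a median of 146 FPKM in both libraries and a median log2 ratio of -0.14, and the 35 without it had medians of 31.4 and 32.4 FPKM and a log2 ratio of -0.10. A match describes the letters at an annotated start only. Between log2 ratio and longest transcript length, Spearman's rho was 0.05 over these 58 genes, which share both libraries, and -0.14 over 16714 genes.

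Genes that work beside these factors, in a list that the rule leaves out, were lower more often than higher. Of 29 expressed genes among 30, 21 were lower and 8 higher, with a median log2 ratio of -0.20, and after scaling 18 were lower and 11 higher. Over all genes, 58.3% were lower as deposited and 50.1% after scaling. Past 2-fold, 1 was lower and 0 were higher, where 6.19% and 6.57% of all genes were. Past 1.25-fold 10 were lower and 3 higher, where 30.2% and 21.9% of all genes were. MTIF2, the initiation factor of mitochondria, was the gene past 2-fold on this scale, at 12.4 FPKM in the live library and 5.23 FPKM in the processed one, a log2 ratio of -1.11. By plain ratio EIF2AK3, described below, was also past 2-fold lower, at 0.494. GFM1, an elongation factor of mitochondria, went the other way, at 9.72 and 17.9 FPKM, a log2 ratio of 0.82.

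Among termination and recycling factors, 3 of 4 were lower with separate bounds, as were 43.7% of all genes. ETF1, which reads stop codons, was at 30.0 FPKM in live cells against 19.8 FPKM in processed ones, its partner GSPT1 at 41.3 and 26.8 FPKM, and the recycling factor ABCE1 at 22.5 and 14.1 FPKM. GSPT2, a paralog of GSPT1, was at 8.24 and 9.44 FPKM. All 4 genes of poly(A) binding were lower with separate bounds, beside the same 43.7% of all genes, led in level by PABPC1, which binds the poly(A) tail and eIF4G, at 1006 and 775 FPKM. After scaling, 3 of 4 genes in the first list and all 4 in the second were still lower, and bounds were separate for 3 in each. By then 50.1% of all genes were lower, and 35.7% were lower with separate bounds.

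The eIF2 kinases did not move together. EIF2AK3, which responds to stress in the endoplasmic reticulum, was at 12.8 FPKM live and 6.35 FPKM processed, a log2 ratio of -0.91, and EIF2AK2, which responds to double-stranded RNA, was at 6.01 and 9.86 FPKM, a log2 ratio of 0.63. EIF2AK1 was at 59.2 and 48.2 FPKM and EIF2AK4, which senses lack of amino acids, at 17.4 and 16.4 FPKM. ATF4, whose translation rises when eIF2 is phosphorylated, was at 185 and 172 FPKM. EIF4EBP1, an mTOR target that blocks eIF4E, was at 33.75 and 24.96 FPKM, a log2 ratio of -0.42. Of the enzymes that modify eIF5A with hypusine, DHPS was at 27.8 and 22.1 FPKM and DOHH at 6.954 and 13.04 FPKM.

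Overlapping genes touch several of these values. Of the 58 expressed translation factor genes, 28 overlap another gene at 1 FPKM or more. EIF4ENIF1 overlaps DRG1, at 31.2 and 28.3 FPKM, and SFI1, at 15.2 and 13.7 FPKM, both on the other strand, and the log2 ratio of each was -0.14. EIF3H overlaps UTP23, at 8.31 and 7.10 FPKM. EIF2S2 overlaps RALY, at 88.3 and 86.3 FPKM. The listed span of EIF2B5 covers many expressed genes, most of them on the same strand. They include AP2M1, at 143 and 118 FPKM, PSMD2, at 125 and 93.5 FPKM, and EIF4G1. The part of these overlaps in the differences was not tested. Genes whose names join a translation factor to a neighbour or mark its antisense were at or near 0, except ANKHD1-EIF4EBP3 at 3.503 and 3.032 FPKM.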

How the data were processed

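RNA was poly-A selected and sequenced as paired reads of 80 nt from 1 live and 1 processed library. Per the submitters' processing notes and the study's methods, the authors aligned reads to GRCh37/hg19 with STAR 2.2.0c guided by GENCODE 14 and deposited FPKM values with bounds from Cufflinks 2.0.2 (Cuffdiff). Read counts are not used here, and which fragments enter the normalization is not given in the sources used here. Genes were joined by identifier. Log2 ratios used a pseudocount of 1 and genes at FPKM 1 or more in a library. Sequence comparisons used GENCODE 44 mapped to GRCh37, a later release, whose positions overlapped all 62 genes. Python 3.11.15, numpy 2.4.6, pandas 2.3.3, scipy 1.17.1 and matplotlib 3.10.9 were used, and calculations were tested on simulated data. Every gene found by the symbol rule is accounted for, those expressed and the subunits and paralogs of each role with values. The genes and lists were chosen with earlier results of these data known. Alternatives covered pseudocount, filter, scaling, status and membership.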

Additional observations from a re-analysis of the deposited data

How the results depend on the processing

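The counts past 2-fold stayed at 0 in both directions under every alternative tried, which were a pseudocount of 0.1, a minimum of 10 FPKM, rescaling to the same sum, division by the median ratio, genes with status OK only, leaving out the Argonaute genes and adding EIF4EBP1 to EIF4EBP3. Dropping the minimum adds only genes below 1 FPKM, which cannot pass 2-fold with a pseudocount of 1, so its count of 0 says nothing. Division by the median ratio turned the median log2 ratio of the translation factor genes from -0.09 to 0.0058, and the log2 ratios of EEF1A1 to 0.049, EEF1D to 0.0014, EIF1 to 0.0304, EIF1AX to 0.031 and EIF1B to 0.019. It also moved the counts past 1.25-fold, a setting added after the data were seen, to 10 higher and 5 lower. Summing with expressed pseudogenes, also added after the data were seen, brought the log2 ratio of EIF2S2 from 0.37 to -0.028, close to no difference. It made 2 log2 ratios more negative, that of EEF1A1 from -0.052 to -0.162 and that of EIF1AX from -0.066 to -0.219. For the other 7 genes the change was small beside their bounds. The share of summed FPKM was 2.11% in live and 2.06% in processed cells when only protein-coding genes outside the mitochondrial genome were summed, and 1.21% and 1.13% without EEF1A1. Counts with separate bounds were 44 as deposited, 40 after scaling and 40 at 10 FPKM or more. The bounds limit precision within a library only. No replicate could be left out with 1 library of each kind. No paired analysis was possible because each condition has 1 library and the labels carry no replicate numbers.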
